A study of Mus musculus with 11 samples.

Results

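The mouse genes E2f1 to E2f8, Rb1 and Rbl1 encode the E2F transcription factors and a pair of their retinoblastoma-family partners. They were taken by symbol from a table of gene counts, and the 10 genes were all found among its 49585 entries. The counts came from haematopoietic stem cells of C57BL/6 mice, sorted from bone marrow as lineage-negative, c-Kit+ and Sca-1+ cells without CD48 and with CD150. They were split by CD41, an integrin subunit of platelets and megakaryocytes that some stem cells also carry. Control mice had received rabbit serum, and the other mice were studied 24 h after platelet depletion. No gene was altered in either, and the labels give no age or sex and do not name the depleting agent. CD41- cells gave 3 control libraries and 3 after depletion, and CD41+ cells gave 2 control libraries and 3 after depletion. Each library was made from RNA of 1000 cells pooled from 3 mice, so spread between single mice was not measured. The labels call the samples biological replicates but do not say whether CD41- and CD41+ pools came from the same mice.

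E2F proteins bind DNA mostly as dimers with a DP protein and control the genes that carry a cell from G1 into DNA replication. In a resting cell the pocket proteins RB1, RBL1 (p107) and RBL2 (p130) hold E2Fs in check, and cyclin-dependent kinases release them by phosphorylating the pocket protein. E2F1, E2F2 and E2F3 are called activators, E2F4 and E2F5 act mainly as repressors with pocket proteins, E2F6 represses without them, and E2F7 and E2F8 are atypical repressors that need neither DP nor pocket proteins. Several family members are themselves E2F targets whose RNA rises as cells enter the cycle. Adult haematopoietic stem cells are mostly quiescent, and loss of pocket proteins is known to push them into cycle.

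Deposited counts added up to 974196 in depleted CD41+ replicate 1, the shallowest library, and to 9950423 in depleted CD41- replicate 1, the deepest. The other 9 lay between 3459754 and 4984950. Levels are given as CPM, a gene's count scaled to a common library total with TMM factors, and 3 counts equalled 0.306 to 3.34 CPM depending on the library. The labelled cell type was checked on its sort genes: Kit was present at 83.4 to 867 CPM and Ly6a, which encodes Sca-1, at 48.0 to 490 CPM in the 11 libraries. Slamf1, the gene of CD150, was present at 16.8 to 56.9 CPM, and Cd48, whose protein the sort excluded, at 12.9 to 106 CPM. Itga2b, which encodes CD41, averaged 69.0 CPM in CD41- and 389 CPM in CD41+ cells of control mice, and 42.2 and 212 CPM in those of depleted mice. Neutrophil transcripts were high and uneven, with 12 listed genes adding up to 8694 to 15119 CPM in CD41- and 24216 to 84391 CPM in CD41+ cells of control mice. Their sum was 4419 to 37023 CPM in depleted CD41- and 15148 to 52569 CPM in depleted CD41+ cells. Fewer cells of a type and less RNA per cell cannot be told apart in such bulk libraries.

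Of the 10 genes, E2f8 was the only one that passed the test, and the other 9 are given below with their values. It was 3.07-fold higher in CD41+ than in CD41- cells of control mice, and 3.35-fold higher in CD41- cells after depletion than in control CD41- cells. In depleted mice the CD41+ and CD41- cells held near-equal mean levels of E2f8. All 10 genes passed the filter on low counts, and tests were edgeR quasi-likelihood F tests with Benjamini-Hochberg adjustment over 13448 genes. At an adjusted p under 0.05 the test called 1 of the 10 between CD41+ and CD41- cells of control mice, where 2.62% of all genes were called (212 higher and 140 lower, or 129 and 157 with library size alone as scaling). It called 0 of the 10 between the same cells of depleted mice, against 0.193% of all genes (26 genes, or 158 with neighbouring title numbers as a block). For depletion it called 1 of the 10 in CD41- cells (3.19% of all genes) and 0 of the 10 in CD41+ cells (0.104% of all genes). On the mean of both treatments CD41 gave 1 of the 10 (5.38% of all genes, 367 higher and 357 lower, or 250 and 445 with library size alone), and on the mean of both cell types depletion gave 1 of the 10 (6.33% of all genes). The difference between the depletion responses of CD41+ and CD41- cells called 0 of the 10 and 0.0% of all genes. The call was E2f8 each time.

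**Figure D1:**
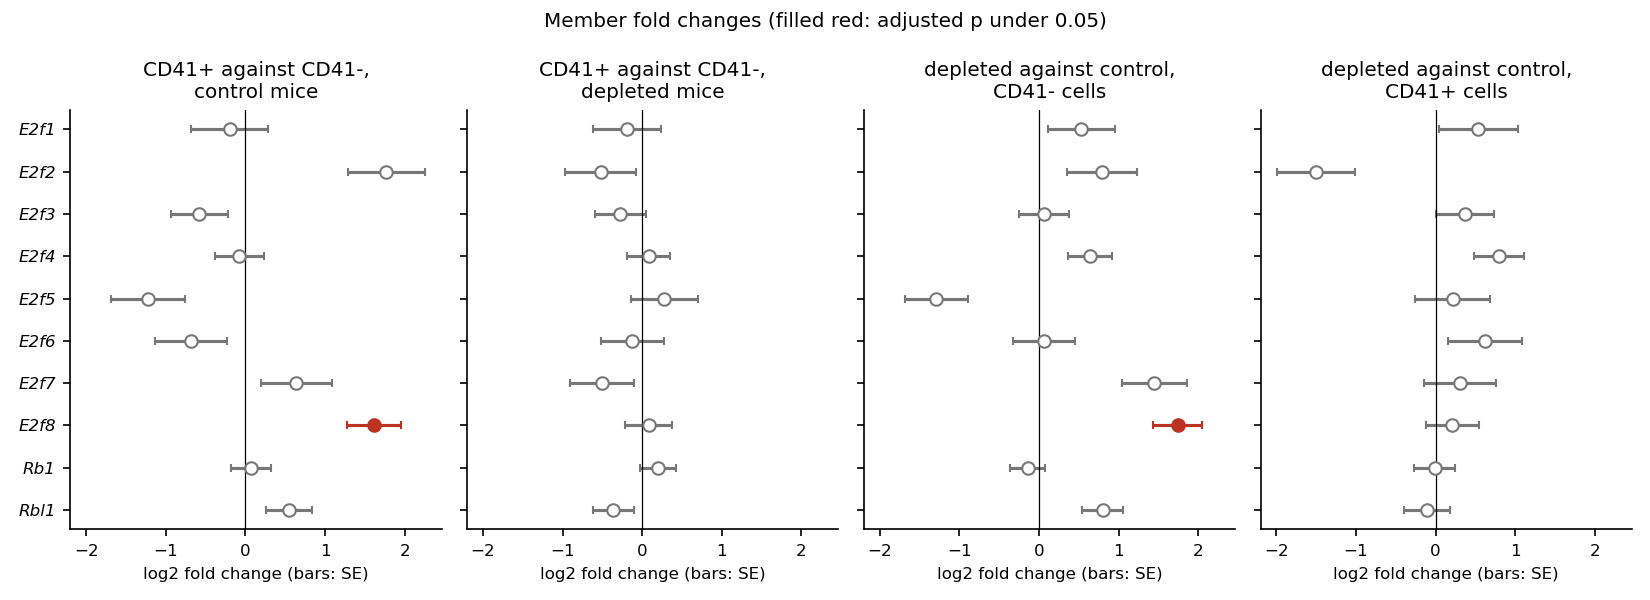
Log2 fold change (horizontal axis, bars show the SE) of each of the 10 genes (vertical axis) in the 4 single comparisons; filled red points passed an adjusted p under 0.05. E2f8 is the filled point at 1.62 for CD41 in control mice and at 1.74 for depletion in CD41- cells, and no point is filled in the other 2 panels.

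At an unadjusted p under 0.05 the counts were 3 of the 10 for CD41 in control mice (18.9% of all genes) and 0 of the 10 in depleted mice (9.18%). They were 5 of the 10 for depletion in CD41- cells (16.9%) and 2 of the 10 in CD41+ cells (12.2%). For the difference of responses they were 4 of the 10 (6.13%), namely E2f2, E2f5, E2f8 and Rbl1. DESeq2 and limma voom also called 0 of the 10 in the 3 comparisons without a call. The comparison of CD41 in control mice and that of depletion in CD41- cells share the 3 control CD41- libraries, and they are not independent.

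**Figure D2:**
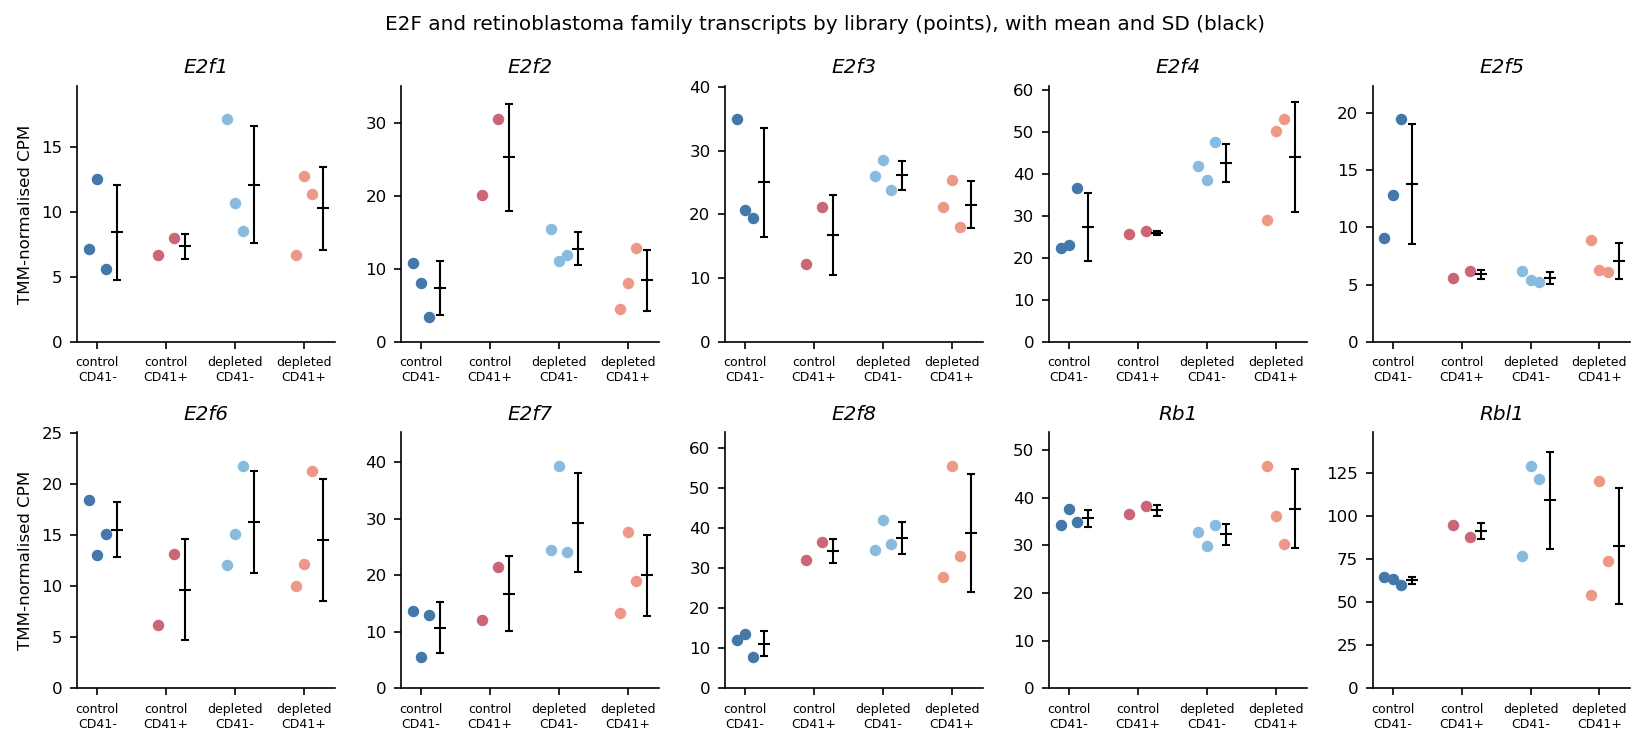
TMM-normalised CPM (vertical axis, from 0 and scaled per gene) of the 10 genes in each library (points) of the 4 groups (horizontal axis), with the group mean and SD in black. The 3 control CD41- libraries of E2f8 lie between 7.78 and 13.6 CPM, below the other 8 at 27.8 to 55.5 CPM, while Rb1 lies between 29.9 and 46.7 CPM in all 11.

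Among the activators, E2f1 showed no called change. E2f1 (ENSMUSG00000027490, GRCm38 chromosome 2, 154559407 to 154569892, minus strand), the founding member of the family, lay between 5.59 and 17.1 CPM in the 11 libraries. Its group means were 8.44 ± 3.66 (SD, n = 3) CPM in control CD41-, 7.34 ± 0.933 (n = 2) in control CD41+, 12.1 ± 4.47 (n = 3) in depleted CD41- and 10.3 ± 3.18 (n = 3) in depleted CD41+ cells. Ranges overlapped in all 4 comparisons. Fold changes on the log2 scale ran from -0.20 ± 0.49 for CD41 in control mice to 0.54 ± 0.49 for depletion in CD41+ cells. E2f1 had only 6 counts in the shallowest library.

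E2f2 was the member with the highest fold change between CD41+ and CD41- cells of control mice, but it did not pass. E2f2 (ENSMUSG00000018983, chromosome 4, 136172394 to 136196057, plus strand) is an activator much studied in blood cells. It stood at 20.0 and 30.4 CPM in control CD41+ cells, against 10.7, 8.11 and 3.41 CPM in control CD41- cells. It stood at 15.4, 11.1 and 11.8 CPM in depleted CD41- and at 4.45, 8.04 and 12.8 CPM in depleted CD41+ cells. Both control CD41+ libraries thus lay above the other 9. The log2 fold change for CD41 in control mice was 1.77 ± 0.48 (adjusted p = 0.0692), and over the alternatives tried its adjusted p ran from 0.0111 to 0.356. Depletion in CD41+ cells gave -1.50 ± 0.49 (adjusted p = 0.242) and depletion in CD41- cells 0.79 ± 0.44 (adjusted p = 0.397). The difference between these responses was -2.29 ± 0.66, with an unadjusted p of 0.00381 and an adjusted p of 0.458. The lowest depleted CD41+ value rests on 4 counts in the shallowest library, and without that library E2f2 gave -1.29 ± 0.51 for depletion in CD41+ cells and an adjusted p of 0.0470 for CD41 in control mice.

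E2f3 (ENSMUSG00000016477, chromosome 13, 29906575 to 29986063, minus strand), an activator made in a long and a short isoform that gene counts do not separate, lay between 12.3 and 34.9 CPM. Its ranges overlapped in every comparison, and its log2 fold changes ran from -0.58 ± 0.36 for CD41 in control mice (adjusted p = 0.405) to 0.37 ± 0.37 for depletion in CD41+ cells (adjusted p = 0.732).

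Of the repressors that work with pocket proteins, E2f4 lay higher and E2f5 lower after depletion in CD41- cells, and neither passed the test. E2f4 (ENSMUSG00000014859, chromosome 8, 105297663 to 105305370, plus strand) is the E2F best known from the repressor complexes of quiescent cells. E2f4 stood at 22.3, 23.0 and 36.7 CPM in control CD41- and at 25.7 and 26.3 CPM in control CD41+ cells. After depletion it stood at 41.9, 38.5 and 47.5 CPM in CD41- and at 28.9, 50.2 and 53.0 CPM in CD41+ cells. In each cell type every depleted library was above every control library, and the narrowest gap was between 38.5 CPM in depleted CD41- replicate 2 and 36.7 CPM in control CD41- replicate 3. In CD41+ cells the gap was between 28.9 CPM in depleted replicate 1, on 26 counts, and 26.3 CPM in control replicate 2. That gap is smaller than 3 counts in the shallowest library, which equal 3.34 CPM. The log2 fold change of depletion was 0.64 ± 0.27 in CD41- cells (adjusted p = 0.254) and 0.79 ± 0.32 in CD41+ cells (adjusted p = 0.338). Over both cell types it was 0.72 ± 0.21 (adjusted p = 0.0587), and 5 of 17 alternatives put it under 0.05. Between CD41+ and CD41- cells E2f4 gave -0.08 ± 0.31 in control and 0.08 ± 0.27 in depleted mice, with 95% intervals of -0.74 to 0.59 and -0.51 to 0.67.

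E2f5 (ENSMUSG00000027552, chromosome 3, 14578641 to 14606309, plus strand) partners mainly with RBL2 and RBL1. E2f5 stood at 9.08, 12.8 and 19.5 CPM in control CD41- cells. It stood at 5.61 and 6.19 CPM in control CD41+, at 6.21, 5.45 and 5.20 CPM in depleted CD41- and at 8.90, 6.27 and 6.12 CPM in depleted CD41+ cells. The 3 control CD41- libraries of E2f5 lay above the other 8, the reverse order of E2f8 but by a far narrower gap. It was between 9.08 CPM in control CD41- replicate 1 and 8.90 CPM in depleted CD41+ replicate 1. The latter rests on 8 counts in the shallowest library, where 3 counts equal 3.34 CPM. For E2f8 the gap was between 13.6 and 27.8 CPM. The log2 fold change of E2f5 was -1.22 ± 0.46 for CD41 in control mice (adjusted p = 0.166) and -1.29 ± 0.40 for depletion in CD41- cells (adjusted p = 0.106, and 0.0449 with DESeq2). The depletion responses of the 2 cell types differed by 1.50 ± 0.62 (adjusted p = 0.727). E2f5 shares 26 exon bases with 1810022K09Rik on the other strand, and reads there may have been assigned to either gene or to none.

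E2f6 (ENSMUSG00000057469, chromosome 12, 16810963 to 16839742, plus strand) represses within a Polycomb complex and does not bind pocket proteins. It lay between 6.15 and 21.8 CPM, and its ranges overlapped in every comparison. Its log2 fold changes ran from -0.68 ± 0.45 for CD41 in control mice (adjusted p = 0.437) to 0.62 ± 0.46 for depletion in CD41+ cells (adjusted p = 0.619). Of 11 listed members of the E2F6 Polycomb complex, all tested, 0 were called for CD41 in control mice and 1 was higher after depletion in CD41- cells (2.62% and 3.19% of all genes were called). That gene was Cbx3, which encodes the heterochromatin protein HP1 gamma, at 48.9 ± 8.07 CPM in depleted against 24.0 ± 2.71 CPM in control CD41- cells (log2 1.02 ± 0.26, adjusted p = 0.0446). The call of Cbx3 held in 3 of 11 fits that left out 1 library, with adjusted p from 0.0305 to 0.189, the highest without depleted CD41- replicate 3. It ended with library size alone (0.0608) and with the neutrophil score (0.0528). For CD41 in control mice 2 of the 11 had an unadjusted p under 0.05 (18.9% of all genes). They were Mga, a scaffold of the complex, at -1.20 ± 0.32 (adjusted p = 0.0623) and Pcgf6, its Polycomb ring finger subunit, at 0.98 ± 0.41 (adjusted p = 0.208).

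E2f8 (ENSMUSG00000046179, chromosome 7, 48866429 to 48881596, minus strand) is an atypical E2F that shuts down G1/S genes later in the cycle. E2f8 stood at 12.1, 13.6 and 7.78 CPM in control CD41- cells, on 44, 52 and 32 counts. It stood at 32.1 and 36.4 CPM in control CD41+ cells. It stood at 34.4, 41.9 and 35.9 CPM in depleted CD41- and at 27.8, 55.5 and 32.9 CPM in depleted CD41+ cells. The 3 control CD41- libraries were thus the lowest of the 11, with no overlap with any other group, and the other 3 groups overlapped one another. The CD41 difference in control mice was 1.62 ± 0.34 on the log2 scale (adjusted p = 0.0236). The depletion response of CD41- cells was 1.74 ± 0.31 (adjusted p = 0.00699).

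E2f8 was not called in the other single comparisons. CD41 in depleted mice gave 0.08 ± 0.30, with a 95% interval of -0.55 to 0.72. Depletion in CD41+ cells gave 0.21 ± 0.33, with an interval of -0.50 to 0.93. The difference of the depletion responses of E2f8 was -1.53 ± 0.45, with an unadjusted p of 0.00415 and an adjusted p of 0.474, so it did not pass over all genes. Without the shallowest library, E2f8 gave 0.37 ± 0.33 for depletion in CD41+ cells and -1.39 ± 0.44 for that difference. On average over treatments E2f8 was higher in CD41+ cells by 0.85 ± 0.22 (adjusted p = 0.0416, and 0.0554 with neighbouring title numbers as a block), and on average over cell types higher after depletion by 0.98 ± 0.23 (adjusted p = 0.0233). Of 11 fits that each left out 1 library, the CD41 average kept its call in 2, those that dropped control CD41- replicate 2 or, in its place, depleted CD41+ replicate 1. The depletion average lost its call when control CD41+ replicate 1 (adjusted p = 0.0972) or 2 (0.0714) was dropped. The same held for each depleted CD41- library (0.0507, 0.0509 and 0.0565 for replicates 1, 2 and 3) and for depleted CD41+ replicate 2 (0.0534).

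The depletion response of E2f8 in CD41- cells was called in all 18 alternative fits, with adjusted p between 6.58e-06 and 0.0376. The block of title numbers was not among them, as it was not run for depletion. The CD41 difference of E2f8 in control mice was not called without control CD41- replicate 1 (adjusted p = 0.0538) or replicate 3 (0.0789), nor without control CD41+ replicate 1 (0.0643) or replicate 2 (0.153). It was also not called with limma voom (0.0617) or with only the groups compared in the fit (0.0795). Scaling by library size alone moved the median of all genes for CD41 in control mice from -0.03 to -0.15, and E2f8 gave 1.50 ± 0.35 there (adjusted p = 0.0442). With a neutrophil score as covariate, E2f8 was higher by 1.78 ± 0.37 for CD41 in control mice (adjusted p = 0.0331) and by 1.75 ± 0.31 for depletion in CD41- cells (adjusted p = 0.00674). E2f8 shares 610 exon bases with Gm2788 on the other strand, which had 609 counts over all libraries, and no source used here states whether counting used the strand.

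E2f7 (ENSMUSG00000020185, chromosome 10, 110745439 to 110787384, plus strand) is the other atypical E2F and can form dimers with E2F8. E2f7 stood at 13.8, 5.50 and 12.9 CPM in control CD41- and at 12.0 and 21.4 CPM in control CD41+ cells. It stood at 24.4, 39.4 and 24.1 CPM in depleted CD41- and at 13.3, 27.6 and 18.9 CPM in depleted CD41+ cells. All 3 depleted CD41- libraries lay above the 3 control CD41- libraries, while the CD41+ groups overlapped. Depletion in CD41- cells gave a log2 fold change of 1.45 ± 0.41, which did not pass (adjusted p = 0.0727, and 0.0141 with DESeq2). For CD41 in control mice E2f7 gave 0.64 ± 0.45 (adjusted p = 0.465).

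The bases just upstream of E2f8, E2f7 and Rbl1 are printed to show the member that was called beside the other atypical member and the pocket protein gene Rbl1. E2f7 and Rbl1 were chosen after their values and motif matches were seen. E2f2, which also lay higher in every depleted than in every control CD41- library, has 2 such windows with 0 E2F matches, and they are not shown. E2f3 has a window with 1 E2F match 11 bases before the start, also not shown. Its log2 fold change for depletion in CD41- cells was 0.07 ± 0.31 (adjusted p = 0.950), so a match was not particular to genes that lay higher. The sequences are RefSeq promoters of GRCm38.p6 read 5′ to 3′ along the gene, each ending at the base before the start site. Such entries were matched for 7 of the 10 genes. Capitals mark matches, on either strand, to the E2F letters TTTGGCGC, TTTCGCGC, TTTCCCGC or TTTGCCGC, to the cell-cycle homology letters TTTGAA or TTTAAA, and to the CCAAT box. No match of one motif overlaps another in these 3 windows.
E2f8, chr7:48881597-48881846, minus strand: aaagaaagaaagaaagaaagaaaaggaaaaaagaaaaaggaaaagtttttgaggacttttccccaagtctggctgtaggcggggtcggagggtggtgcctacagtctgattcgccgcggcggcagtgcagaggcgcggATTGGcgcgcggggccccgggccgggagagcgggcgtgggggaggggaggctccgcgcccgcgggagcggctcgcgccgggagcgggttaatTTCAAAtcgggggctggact
E2f7, chr10:110745189-110745438, plus strand: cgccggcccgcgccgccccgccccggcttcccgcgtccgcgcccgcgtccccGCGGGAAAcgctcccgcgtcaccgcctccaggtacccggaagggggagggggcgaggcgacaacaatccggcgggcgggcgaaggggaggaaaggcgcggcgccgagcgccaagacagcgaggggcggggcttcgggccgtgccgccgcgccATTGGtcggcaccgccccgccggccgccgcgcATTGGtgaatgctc
Rbl1, chr2:157204535-157204784, minus strand: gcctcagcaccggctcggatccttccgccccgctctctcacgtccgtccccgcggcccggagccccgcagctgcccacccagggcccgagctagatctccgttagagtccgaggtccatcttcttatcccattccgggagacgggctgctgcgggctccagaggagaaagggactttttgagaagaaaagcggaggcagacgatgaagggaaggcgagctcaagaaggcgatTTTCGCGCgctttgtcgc
The E2f8 window held no E2F match, 1 TTTGAA on the opposite strand that begins 20 bases before the start, and 1 CCAAT on the opposite strand 112 bases before it. The E2f7 window held 1 TTTCCCGC on the opposite strand 198 bases before the start and 2 CCAAT on the opposite strand at 46 and 14 bases. The Rbl1 window held 1 TTTCGCGC on the gene's strand 18 bases before the start. Of 32851 promoters of the same 250-base length, 1.86% held an E2F match, 25.2% a cell-cycle homology match and 33.8% a CCAAT match. Among the 12680 promoters of tested genes these shares were 3.15%, 18.2% and 35.2%. A match describes the letters only.

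The pocket protein genes Rb1 and Rbl1 passed in none of the 7 comparisons. Rb1 (ENSMUSG00000022105, chromosome 14, 73183673 to 73325822, minus strand), the retinoblastoma tumour suppressor, averaged 35.7 ± 1.76 CPM in control CD41-, 37.4 ± 1.12 in control CD41+, 32.4 ± 2.22 in depleted CD41- and 37.8 ± 8.31 in depleted CD41+ cells. Its log2 fold changes lay between -0.14 ± 0.22 and 0.19 ± 0.23 in the 4 single comparisons, with 95% intervals reaching at most -0.62 and 0.68. The 3 depleted CD41- libraries nevertheless all lay just below the 3 control CD41- ones, at 29.9 to 34.3 against 34.4 to 37.7 CPM. Rb1 shares 488 exon bases with Rcbtb2 and 408 with Lpar6 on the other strand.

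Rbl1 (ENSMUSG00000027641, chromosome 2, 157145893 to 157204534, minus strand) encodes p107, the pocket protein that rises in cycling cells. It stood at 64.6, 63.3 and 60.3 CPM in control CD41- and at 94.9 and 88.2 CPM in control CD41+ cells. It stood at 77.2, 129 and 122 CPM in depleted CD41- and at 54.5, 120 and 74.3 CPM in depleted CD41+ cells. The control CD41- libraries lay close together and below those of control CD41+ and depleted CD41- cells, whereas depleted CD41+ cells overlapped every other group. Depletion in CD41- cells gave 0.80 ± 0.26 for Rbl1 on the log2 scale (adjusted p = 0.121), and CD41 in control mice 0.54 ± 0.29 (adjusted p = 0.321). The lowest value came from the shallowest library.

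Counted by libraries, 4 of the 10 genes did not overlap between CD41+ and CD41- cells of control mice, with E2f2, E2f8 and Rbl1 higher and E2f5 lower, where 34.9% of all genes did not overlap. In depleted mice 0 of the 10 were without overlap (17.7% of all genes). Depletion left 7 of the 10 without overlap in CD41- cells, with E2f2, E2f4, E2f7, E2f8 and Rbl1 higher and E2f5 and Rb1 lower, against 25.0% of all genes. The gap of Rb1 was between 34.3 and 34.4 CPM and that of E2f2 between 11.1 and 10.7 CPM. Both are smaller than 3 counts, which equal 0.628 to 0.825 CPM in the libraries at these gaps. In CD41+ cells it was 2 of the 10, E2f4 higher and E2f2 lower, against 27.0% of all genes.

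To compare levels between genes, CPM was divided by the length of each gene's merged exons in kilobases, which poly-dT primed libraries follow only roughly. On this per-length scale E2f4 and Rbl1 held the first and second places in every group. In control CD41- cells they stood at 11.2 ± 3.32 and 10.5 ± 0.369 CPM per kb, with overlapping ranges. They were followed by E2f5, Rb1, E2f3, E2f6, E2f1, E2f8, E2f2 and E2f7, and of these neighbours only E2f3 and E2f6 did not overlap. E2f8 was eighth of the 10 there, at 2.05 ± 0.556 CPM per kb, and the third in each other group, at 6.29 ± 0.561, 6.88 ± 0.724 and 7.12 ± 2.70 CPM per kb in control CD41+, depleted CD41- and depleted CD41+ cells. Its range overlapped that of Rb1, the next gene, in control CD41+ and depleted CD41+ cells but not in depleted CD41- cells. In depleted CD41+ cells it also overlapped Rbl1, the gene before it. E2f5 moved from the third place in control CD41- cells, at 7.74 ± 2.95 CPM per kb, to the sixth in control CD41+ and the eighth in depleted CD41- cells, at 3.31 ± 0.231 and 3.15 ± 0.296 CPM per kb. In each of these groups its range overlapped that of the next gene. E2f7 was last in control CD41- cells at 1.19 ± 0.504 CPM per kb, E2f6 in control CD41+ cells at 1.70 ± 0.876, and E2f2 in both depleted groups at 2.62 ± 0.469 and 1.73 ± 0.860.

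The make-up of the family was read on the same scale. The atypical E2f7 and E2f8 made up 9.74% ± 2.03 (SD, n = 3) of the length-scaled signal of the 8 E2F genes in control CD41- cells. They made up 23.7% ± 0.0572 (n = 2) in control CD41+, 22.6% ± 3.95 (n = 3) in depleted CD41- and 21.6% ± 4.65 (n = 3) in depleted CD41+ cells. The 3 control CD41- libraries, at 7.63% to 11.7%, did not overlap the others, which reached down to 17.5%. The activators made up 26.7% ± 9.36, 30.5% ± 3.68, 25.1% ± 4.27 and 21.0% ± 0.533 in the same order of groups. E2f4 and E2f5 together made up 55.3% ± 12.7, 40.9% ± 5.39, 45.8% ± 3.68 and 51.5% ± 2.94. The share of E2f5 alone was 22.6% ± 6.63 in control CD41- and 7.04% ± 0.632 in depleted CD41- cells. These shares are descriptions and were not tested.

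**Figure D3:**
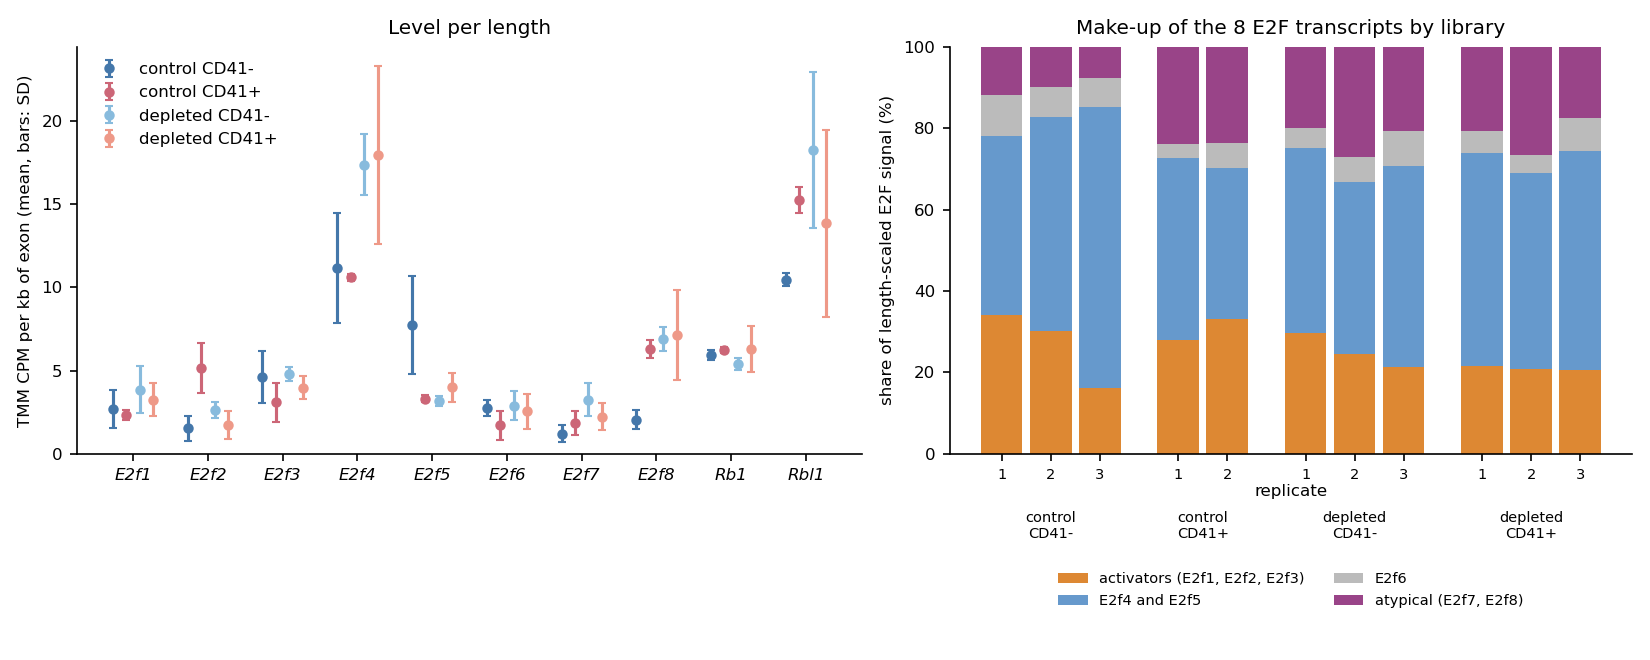
Left, mean and SD of TMM CPM per kb of exon (vertical axis) for the 10 genes (horizontal axis) in the 4 groups (colours); right, share in percent of the summed length-scaled E2F signal held by each class in each library (bars). E2f8 sits at 2.05 CPM per kb in control CD41- cells and at 6.29 to 7.12 in the other groups, and the atypical share is 7.63% to 11.7% in the 3 control CD41- libraries and at least 17.5% in the other 8.

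Partners of the E2Fs were read from lists written from general knowledge. Over all genes 2.62% were called for CD41 in control mice and 3.19% for depletion in CD41- cells. Tfdp1, the main DP subunit, was 1.93-fold higher in CD41+ than CD41- cells of control mice, at 199 ± 25.1 against 103 ± 8.16 CPM (log2 0.95 ± 0.23, adjusted p = 0.0436). The call of Tfdp1 held in 3 of 11 fits that left out 1 library (adjusted p from 0.0123 to 0.249, the highest without control CD41+ replicate 2). Tfdp1 was not called with the neutrophil score as covariate (0.73 on the log2 scale, adjusted p = 0.100), with library size alone (0.0581) or with limma voom (0.0660). It was the 1 of 3 genes called among Tfdp1, Tfdp2 and Rbl2, and 0 of the 3 were called for depletion in CD41- cells, where Tfdp1 gave 0.69 ± 0.21 (adjusted p = 0.0981) and 2 of the 3 had an unadjusted p under 0.05. Rbl2, the pocket protein of quiescent cells, averaged 129 ± 36.8 CPM in CD41- and 72.8 ± 14.6 CPM in CD41+ cells of control mice, a log2 fold change of -0.82 ± 0.33 that did not pass (adjusted p = 0.198).

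Of 7 genes of the MuvB core with Mybl2 and Foxm1, which act with pocket proteins or after them in G2, 1 was higher after depletion in CD41- cells (2.3% of all genes). It was Foxm1, a driver of mitotic genes, at 26.7 ± 2.58 against 6.47 ± 1.09 CPM (log2 2.04 ± 0.37, adjusted p = 0.00712). For CD41 in control mice 0 of the 7 were called, and Foxm1, with the only unadjusted p under 0.05, gave 1.58 ± 0.40 (adjusted p = 0.0506). The median of the list was 0.44 for CD41 in control mice and 0.36 for depletion in CD41- cells, against -0.03 over all genes in both.

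Among 8 G1 cyclins and kinases, 3 were higher in CD41+ cells of control mice (1.58% of all genes were called higher). They were Ccne2, a cyclin E that activates CDK2 and an E2F target, at 179 ± 14.7 against 55.4 ± 15.6 CPM (log2 1.69 ± 0.22, adjusted p = 0.00304), Ccnd3 at 0.90 ± 0.17 (adjusted p = 0.0131) and Cdk2 at 0.85 ± 0.16 (adjusted p = 0.0147). After depletion in CD41- cells Ccne2 was higher by 1.04 ± 0.20 (adjusted p = 0.0118). Cdk6, a kinase that phosphorylates RB1 and is tied to stem cell exit from quiescence, fell there from a mean of 184 to one of 105 CPM (log2 -0.81 ± 0.17, adjusted p = 0.0172). Without control CD41+ replicate 2 Ccnd3 and Cdk2 were not called (adjusted p = 0.159 and 0.171), nor was Ccnd3 without control CD41- replicate 3 (0.0510). With only the groups compared in the fit Ccnd3 (0.0649) and Cdk2 (0.0667) were also not called. For depletion, dropping depleted CD41- replicate 1 ended the call of Ccne2 (0.0601). Dropping control CD41- replicate 3 ended that of Cdk6 (0.0623), as did dropping replicate 2 (0.0758) or 3 (0.0814) of depleted CD41- cells. Of 7 CDK inhibitors, 5 passed the filter, and 0 of these 5 were called in either comparison. In each comparison 1 of the 5 had an unadjusted p under 0.05, namely Cdkn2d for CD41 in control mice at 0.80 ± 0.22 (adjusted p = 0.0666) and Cdkn1b, which encodes p27, for depletion in CD41- cells at -1.23 ± 0.50 (adjusted p = 0.223).

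Genes that E2Fs are known to drive at the G1/S boundary lay higher in the same groups as E2f8. Of 56 such targets, 22 were higher and 0 lower in CD41+ than CD41- cells of control mice, and the median was 0.79 on the log2 scale (1.58% of all genes were called higher). They included Rrm1 and Rrm2, the subunits of ribonucleotide reductase, at 1.34 ± 0.16 (adjusted p = 0.00198) and 1.84 ± 0.27 (adjusted p = 0.00367), and the histone chaperone gene Asf1b at 1.69 ± 0.22 (adjusted p = 0.00304). After depletion in CD41- cells 27 of the 56 were higher, 0 were lower and the median was 0.87 (2.3% of all genes were called higher). They included Rrm1 at 1.32 ± 0.15 (adjusted p = 0.000424), the primase gene Prim2 at 1.33 ± 0.19 (adjusted p = 0.00163) and the thymidine kinase gene Tk1 at 1.34 ± 0.20 (adjusted p = 0.00198). Their summed level was 5428 to 6930 CPM in control CD41-, 10850 to 11742 in control CD41+, 10442 to 12007 in depleted CD41- and 11434 to 13039 CPM in depleted CD41+ cells. The control CD41- libraries lay below all others and the other 3 groups lay close together.

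Of 32 G2/M genes, 22 were higher and 0 lower in CD41+ cells of control mice (median 1.19), and 30 were higher and 0 lower after depletion in CD41- cells (median 1.56). Examples are Cdca8, a subunit of the chromosomal passenger complex, at 1.34 ± 0.17 (adjusted p = 0.0029) and 1.79 ± 0.16 (adjusted p = 9.49e-05), and Ccnb2, a cyclin B, at 1.28 ± 0.18 (adjusted p = 0.00367) and 1.78 ± 0.17 (adjusted p = 0.000165). In both these comparisons the median over all genes was -0.03, and 1.58% and 2.3% of all genes were called higher. The summed level of the G2/M genes was 1862 to 2352 CPM in control CD41- and 4576 to 5075 CPM in control CD41+ cells. It was 6320 to 6919 CPM in depleted CD41- and 6439 to 7736 CPM in depleted CD41+ cells. Control CD41+ cells thus lay between control CD41- cells and both depleted groups, unlike for E2f8. The CD41 counts of called genes in control mice rest on few libraries. Among the genes named above, Rrm2 (adjusted p = 0.0512), Ccnb2 (0.0563), Tk1 (0.0558) and Prim2 (0.0986) were not called for CD41 in control mice without control CD41+ replicate 2. Without that library the counts were 4 of 56 and 4 of 32, without control CD41+ replicate 1 they were 12 and 14, and without control CD41- replicate 3 they were 12 and 11. The G1/S count after depletion in CD41- cells was 14 when depleted CD41- replicate 1 was left out, 15 when control CD41- replicate 3 was and 16 when control CD41- replicate 2 was. Leaving out depleted CD41- replicate 2 also gave 15. With the neutrophil score as covariate the counts were 14 and 16 for CD41 in control mice and 28 and 30 for depletion in CD41- cells.

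With the filter on low counts and all 11 libraries, edgeR called 0 genes of either list in the other single comparisons and in the difference of responses. Between CD41+ and CD41- cells of depleted mice 3 of the 56 and 3 of the 32 had an unadjusted p under 0.05 (9.18% of all genes). The medians were 0.11 and 0.05, DESeq2 and limma voom called 0, and edgeR without the filter called 0 and 1 lower. For depletion in CD41+ cells 4 of the 56 and 20 of the 32 had an unadjusted p under 0.05 (12.2% of all genes). The medians were 0.15 and 0.54, and both DESeq2 and edgeR without the filter called 1 and 5 higher. Without the shallowest library edgeR called 0 and 2 higher. For the difference of responses the medians were -0.67 and -1.10, with 26 and 28 genes at an unadjusted p under 0.05 (6.13% of all genes). DESeq2 called 2 and 8 lower, and edgeR without the filter called 9 and 18 lower.

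Some stem cell genes were lower in the same comparisons. Of 10 genes of the sort and of stem cell identity, 2 were higher in CD41+ cells of control mice, Itga2b and Slamf1, and 2 were lower, with a median of -0.74 (2.62% of all genes were called either way, and 3.19% for depletion in CD41- cells). The lower ones were Hlf, a transcription factor of stem cells, at 94.7 against 292 CPM (log2 -1.62 ± 0.26, adjusted p = 0.00561), and Procr, the stem cell surface receptor EPCR, at 37.8 against 94.3 CPM (-1.32 ± 0.26, adjusted p = 0.0164). Ly6a stood at 111 against 327 CPM and did not pass (-1.56 ± 0.39, adjusted p = 0.0520). After depletion in CD41- cells 0 of the 10 were higher and 1 was lower, Hlf at 156 against 292 CPM (-0.91 ± 0.22, adjusted p = 0.0367), and the median was -0.33. Dropping control CD41+ replicate 2 ended the CD41 calls of Hlf (0.0901) and Procr (0.178), and dropping control CD41+ replicate 1 that of Procr (0.0614). The depletion call of Hlf held in 5 of 11 fits that left out 1 library, with adjusted p from 0.00723 to 0.146, the highest without depleted CD41- replicate 1, and ended with library size alone (0.0568). The stem cell genes were named after their values were seen. The part of these differences in the E2f8 and cell-cycle results was not tested.

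**Figure D4:**
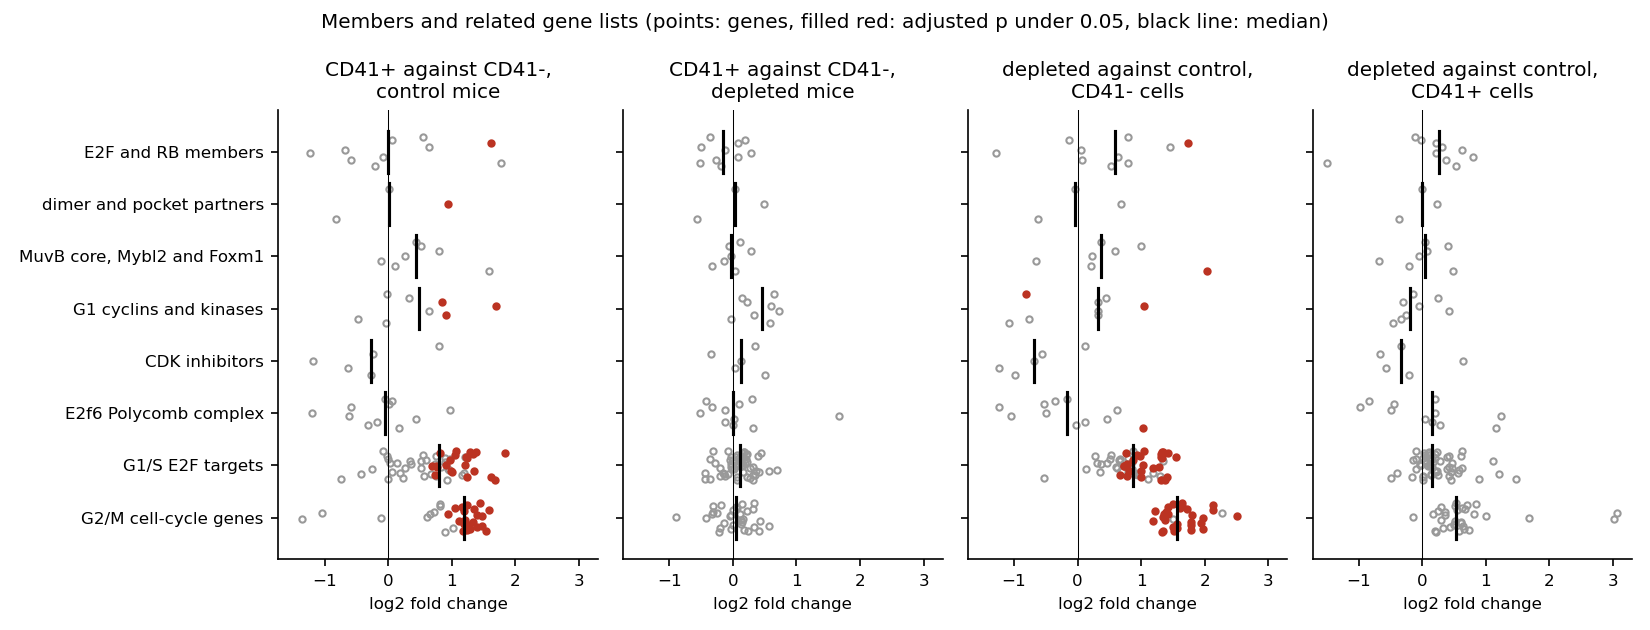
Log2 fold change (horizontal axis) of single genes (points) of the E2F and RB family and 7 related lists (vertical axis) in the 4 single comparisons, with the median of each list as a black line and genes at an adjusted p under 0.05 filled red. The G1/S and G2/M medians are 0.79 and 1.19 for CD41 in control mice and 0.87 and 1.56 for depletion in CD41- cells, and no gene of these lists is filled in the other 2 panels.

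The genes with the most similar pattern over the 11 libraries were found among 10810 genes by the Pearson correlation of log2 CPM, as a description with no test. Libraries fall into 4 groups, so genes with the same group differences score high. For E2f8 they were Pold2, a subunit of DNA polymerase delta, at 0.976, Pmf1, a kinetochore protein, at 0.971 and the histone gene H2afx at 0.970. For E2f7 they were Iqgap3 and Anln, both at 0.938, and Spag5 at 0.935, of which Anln and Spag5 work in cell division. The genes most like E2f4 were Ndufv3 at 0.928, Gm17018 at 0.927 and Clspn, the replication checkpoint adaptor claspin, at 0.926. For Rbl1 they were Lmf2 at 0.926, Taf2 at 0.911 and Ctc1 at 0.897, for E2f2 Syngr1 at 0.897, and for E2f5 Mttp at 0.898.

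Transcripts of other cell types also lay at different sums in the groups. The neutrophil list, at the sums given above and with no gene at 0 in any library, had 0 of 12 genes called for CD41 in control mice (2 at an unadjusted p under 0.05), and its median was 1.79 on the log2 scale. For depletion in CD41- cells it had 0 of 12 called (0 at an unadjusted p under 0.05) with a median of 0.61. The 11 erythroid genes summed to 2945 to 4817 CPM in CD41- and 5237 to 6468 CPM in CD41+ cells of control mice, and to 2947 to 4564 and 4046 to 5406 CPM in the depleted groups. Car2 dominated this sum, at means of 2980 and 3676 CPM in CD41- and CD41+ cells of control mice. The 10 megakaryocyte genes summed to 912 to 1429, 973 to 1501, 503 to 824 and 491 to 819 CPM in the order control CD41-, control CD41+, depleted CD41- and depleted CD41+. The 10 macrophage genes summed to 1425 to 1625, 2225 to 7124, 733 to 3103 and 1577 to 4150 CPM, and the 9 endothelial and stromal genes to 75.6 to 107, 182 to 316, 70.4 to 361 and 274 to 503 CPM. B-cell genes summed to 40.4 to 126 CPM and T and NK genes to 71.0 to 228 CPM over all libraries, with Pax5 at 0 in 7 libraries and Cd3e at 0 in 9. The stromal genes Kitl and Ibsp were at 0 in all 3 control CD41- libraries. Medians on the log2 scale for CD41 in control mice were 1.66 (erythroid), 1.61 (macrophage), 1.17 (megakaryocyte) and 3.28 (endothelial and stromal). The B-cell list gave 0.68 and the T and NK list 0.96, against -0.03 over all genes. For depletion in CD41- cells the medians were 0.16, 0.64, -1.26, 2.39, -0.10 and -0.42 in the same order of lists. Of these lists, 4 of 10 megakaryocyte, 1 of 11 erythroid, 2 of 8 tested endothelial and stromal and 1 of 3 tested T and NK genes (Nkg7) were higher in CD41+ cells of control mice (1.58% of all genes). After depletion in CD41- cells 2 of 10 megakaryocyte genes were lower (3.19% of all genes were called in either direction). For E2f8 the values with the neutrophil score as covariate stand above, and the part of the other lists was not tested.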

How the data were processed

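Per the labels' protocols, RNA of 1000 sorted cells per library was reverse transcribed from a poly-dT primer with template switching, amplified over 17 cycles, tagmented and sequenced on Illumina. Named tools are cutadapt, STAR and HTSeq 0.6.1p1, per the submitters' processing notes, and GRCm38 and mm10 as builds. The deposited values are the authors' raw counts per gene. No source used here states the strand setting or the annotation release. Symbols, coordinates and exon lengths came from GENCODE M21 (GRCm38).

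Genes were kept by filterByExpr of edgeR 4.0.16 (count of 10, total of 15), so that 13448 genes holding 99.7% of counts were tested. They were TMM-scaled and fitted by the robust quasi-likelihood model with 1 coefficient per group over all 11 libraries, in R 4.3.3. P-values were adjusted by Benjamini-Hochberg at 0.05. The SE of a log2 fold change is its size divided by the root of the F statistic. Each result was recomputed with DESeq2 1.42.0, RLE factors, library size without factors, no filter and voom of limma 3.58.1 with quality weights. It was also recomputed with a neutrophil score as covariate and leaving out each library. A fit of the compared groups only was run for the 4 single comparisons. A block of title numbers was run for the CD41 comparisons and the difference of responses, and for no depletion comparison. The fit was also run on simulated counts that gave each gene the same spread in every group and added no other cell types. That run cannot speak to unequal spread between groups or to uneven neutrophil transcripts. The family members, the 16 gene lists (210 genes, all in the table) and the comparisons were chosen with earlier results of these data known. Named list genes are up to 4 per list with the smallest p in a comparison. The genes listed as most similar to a member are its 3 highest correlations among genes averaging 5 CPM or more, on log2 values with a prior count of 2. PCR reads without molecular identifiers are not independent molecules, so the 3-count floors cover counting error only. Figures were drawn with matplotlib 3.10.9.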

Additional observations from a re-analysis of the deposited data

How the results depend on the processing

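The counts of family members called were 1 for CD41 in control mice, 1 for depletion in CD41- cells and 1 for each average. For CD41 in control mice the count was 2 without a filter on low counts and 2 with DESeq2 (E2f2 beside E2f8), and 0 with limma voom and 0 with only the groups compared. For CD41 on average it was 0 with library size alone and 0 with the neutrophil score. For depletion in CD41- cells it was 3 without a filter and 3 with DESeq2, and for depletion on average 3 without a filter, 2 with DESeq2 and 2 with limma voom. Leaving out 1 library gave 0 to 2 for CD41 in control mice, 0 to 1 for CD41 on average, 1 in all 11 fits for depletion in CD41- cells and 0 to 2 for depletion on average. The calls of Tfdp1 and Cbx3 ended in 8 of 11 such fits each. The cause of these shifts was not tested. The 3 comparisons with 0 members called had 0 under each alternative run.

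No pairing is stated in the labels. With consecutive title numbers as a replicate block, 1 member (E2f8) was called for CD41 in control mice (adjusted p = 0.0412) and 0 for CD41 on average (adjusted p = 0.0554 for E2f8). Deviations of libraries with neighbouring numbers correlated by 0.0801 and 0.0977 in control and by 0.228, 0.343 and 0.207 in depleted mice. All 6 other pairings in depleted mice were negative. Deviations were taken from each group's own mean, so a positive value in some pairings pushes the others below 0. The 6 negative values are therefore no separate support for pairs. The positive depleted values may hint at pairs, without a test, and the control values stay under 0.1, so the block was kept as an alternative. The block called 158 genes of the whole table against 26 for CD41 in depleted mice.

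Of 1270 member values under the alternatives, 59 changed sign, all of them in results within 1 SE of 0 and 0 of them called. Over all genes, DESeq2 called 994 for CD41 in control mice against 352, and 851 for depletion in CD41- cells against 429. Leaving out 1 library gave 48 (control CD41+ replicate 2) to 545 (depleted CD41+ replicate 1) for CD41 in control mice. Depth limits the shallowest library most: E2f2 had 4 counts there, E2f1 had 6 and E2f5 had 8. In the main fit all groups share 1 estimate of the spread per gene. For E2f8 the group SDs were 3.02, 3.05, 3.94 and 14.7 CPM in control CD41-, control CD41+, depleted CD41- and depleted CD41+ cells. The control CD41+ group has 2 libraries, and with 1 left its own spread is not measured.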
